A study of Homo sapiens with 8 samples.

Results

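The genes described here form a set of 49 that act in G2 phase and mitosis, the part of the cell cycle in which a cell prepares for division, separates its copied chromosomes and splits. They were chosen by name, as 49 of the 27757 loci in the deposited expression table, each found through the RefSeq transcript accessions of its row. Each gene had 1 row, and all 49 were among the 12112 loci that reached 1 FPKM in at least 2 of the 8 libraries and were tested. FPKM is fragments per kilobase of transcript, scaled between libraries in a way not given in the sources used here. The RNA came from OVISE, an established human ovarian carcinoma cell line, in 4 groups of 2 libraries. Untreated cells with intact SYK (SYK-WT) and untreated cells with SYK knocked out (SYK-KO) were set beside the same 2 lines kept for 24 h with EGF, the ligand of the receptor EGFR, at 50 ng/ml (SYK-WT EGF and SYK-KO EGF). SYK is a cytoplasmic tyrosine kinase. The knockout was made with a Cas9 nickase and a pair of guides to exon 2 of SYK. Cells were selected with puromycin, cloned from single cells and checked by immunoblot. The labels do not say how many clones were used, whether the SYK-WT line went through the same cloning, or whether libraries of the same group are from separate cultures. Differences between the genotypes can therefore also be differences between clones, which cannot be told apart here, and p-values rest on the spread between these samples alone, which may be technical.

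Genes of this set are transcribed in a wave late in the cell cycle. In resting and early cycling cells the DREAM complex, built from MuvB proteins, a pocket protein and E2F4, holds them down through a promoter sequence called the cell cycle genes homology region (CHR). Later in the cycle MuvB joins with B-MYB (MYBL2) and FOXM1, and the genes turn on together with the help of NF-Y, which binds CCAAT boxes. In bulk RNA a lower level of these transcripts can come from fewer cells in G2 and mitosis or from less RNA in each such cell, and these cannot be told apart.

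Promoters of 42 of the 49 genes were found in RefSeq (GRCh38.p14), as 250 bases before and 50 bases after the annotated start. AURKA, BIRC5, BUB3, FOXM1, TPX2, TTK and UBE2C had no entry. The CHR letters TTTGAA or TTCGAA, searched on both strands, were present in 31 of the 42 (73.8%), compared with 16.4% of all 35116 promoters of that length. Those 35116 were not limited to genes expressed here, and only the set was reduced to 1 promoter per gene. CCAAT on either strand was present in 32 (76.2%, against 34.6% of all promoters), at least 2 CCAAT boxes in 20 (47.6%, against 10.8%), and CHR and CCAAT letters together in 24 (57.1%, against 6.38%). The E2F letters TTGGCGC or TTCGCGC were present in 8 (19.0%, against 5.06%). The 6 promoters below belong to genes whose values are described further on, 4 with CHR letters and 2 without, and have matches in capitals (CCAAT reads ATTGG and TTTGAA reads TTCAAA when the match lies on the opposite strand). None of the 6 held the E2F letters. CCNB2 (chr15:59104896-59105195, plus strand) held 4 CCAAT boxes and a CHR match that starts 29 bases before the start site. PLK1 (chr16:23678639-23678938, plus strand) held 1 CCAAT box and a CHR match at the same distance, and PRC1 (chr15:90994486-90994785, minus strand) held 1 of each, with the CHR match 20 bases before the start. TOP2A (chr17:40417847-40418146, minus strand) held 4 CCAAT boxes and 2 CHR matches farther upstream. KIF20A (chr5:138178862-138179161, plus strand) and NEK2 (chr1:211675572-211675871, minus strand) each held 2 CCAAT boxes and no CHR letters within this window.
CCNB2: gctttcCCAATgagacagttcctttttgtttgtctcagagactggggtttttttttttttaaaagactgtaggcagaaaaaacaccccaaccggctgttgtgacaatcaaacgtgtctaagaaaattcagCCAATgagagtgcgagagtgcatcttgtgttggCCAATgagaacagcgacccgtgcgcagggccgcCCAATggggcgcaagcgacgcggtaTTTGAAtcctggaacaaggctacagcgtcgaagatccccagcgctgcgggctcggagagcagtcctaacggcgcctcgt
PLK1: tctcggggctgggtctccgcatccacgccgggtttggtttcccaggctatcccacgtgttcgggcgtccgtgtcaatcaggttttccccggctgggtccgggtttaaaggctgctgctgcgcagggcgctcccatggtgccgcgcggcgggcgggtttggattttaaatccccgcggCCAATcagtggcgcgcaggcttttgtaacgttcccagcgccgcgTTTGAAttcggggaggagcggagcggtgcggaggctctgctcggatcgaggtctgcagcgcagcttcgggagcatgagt
PRC1: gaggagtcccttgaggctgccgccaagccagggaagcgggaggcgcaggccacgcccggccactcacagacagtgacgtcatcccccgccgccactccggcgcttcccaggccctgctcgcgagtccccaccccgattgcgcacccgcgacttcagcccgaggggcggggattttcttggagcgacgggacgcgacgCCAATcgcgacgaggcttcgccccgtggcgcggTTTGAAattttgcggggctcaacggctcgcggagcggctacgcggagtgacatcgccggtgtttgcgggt
TOP2A: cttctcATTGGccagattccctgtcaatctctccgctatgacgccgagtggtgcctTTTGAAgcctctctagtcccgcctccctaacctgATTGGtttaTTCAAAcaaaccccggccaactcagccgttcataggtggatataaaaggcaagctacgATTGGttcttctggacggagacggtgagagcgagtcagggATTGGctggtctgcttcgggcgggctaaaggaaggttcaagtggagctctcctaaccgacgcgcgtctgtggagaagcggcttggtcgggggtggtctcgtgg
KIF20A: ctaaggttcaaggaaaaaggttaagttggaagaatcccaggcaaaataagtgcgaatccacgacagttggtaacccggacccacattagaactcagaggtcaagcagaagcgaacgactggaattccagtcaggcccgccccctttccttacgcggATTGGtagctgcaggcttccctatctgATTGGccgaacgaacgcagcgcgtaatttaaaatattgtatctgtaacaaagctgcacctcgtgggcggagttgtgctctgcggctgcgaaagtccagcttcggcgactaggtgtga
NEK2: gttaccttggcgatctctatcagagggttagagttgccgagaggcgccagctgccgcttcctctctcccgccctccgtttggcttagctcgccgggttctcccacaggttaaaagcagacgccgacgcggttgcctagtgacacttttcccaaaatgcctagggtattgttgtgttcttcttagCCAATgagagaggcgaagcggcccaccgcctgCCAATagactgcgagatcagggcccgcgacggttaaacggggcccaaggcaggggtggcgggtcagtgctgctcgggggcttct
A match is a run of letters and not a measured binding site.

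**Figure D1:**
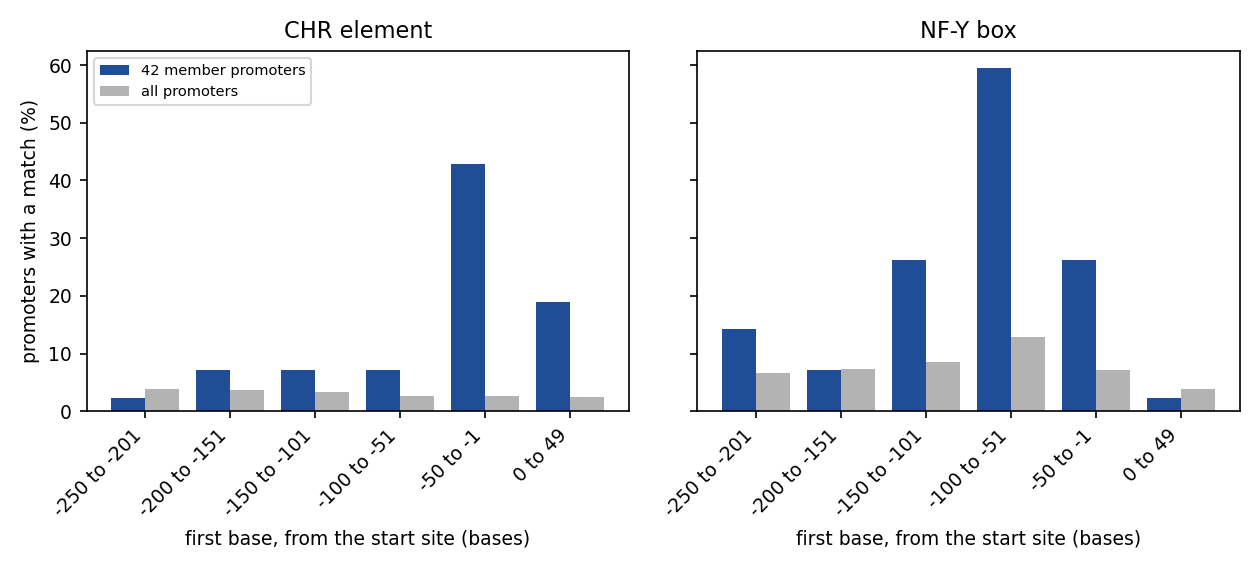
Share of promoters (%, vertical axis) in which a CHR match (left) or an NF-Y box, CCAAT (right), starts within each stretch of 50 bases relative to the start site (horizontal axis), for the 42 promoters of the set (blue) and all 35116 promoters of the table (grey). CHR matches start in the 50 bases before the start site in 42.9% of the set and 2.73% of all promoters, and CCAAT matches start 51 to 100 bases before it in 59.5% and 12.9%.

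The matches clustered close to the start site. A CHR match began within the 50 bases before the start site in 18 of the 42 promoters (42.9%, against 2.73% of all promoters), and a CCAAT match began 51 to 100 bases before it in 25 (59.5%, against 12.9%).

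SYK RNA was 4.91 and 5.30 FPKM in the 2 SYK-WT libraries, 3.11 and 3.43 in SYK-KO, 3.88 and 3.62 in SYK-WT EGF, and 2.80 and 3.16 in SYK-KO EGF. It was lower in SYK-KO than in SYK-WT (log2 difference -0.52, limma adjusted p = 0.00289), and this value over the whole gene does not test whether the protein was lost. All 8 epithelial and clear cell carcinoma markers listed reached 1 FPKM, with a summed level of 3160 to 3410 FPKM in SYK-WT, 4220 to 4640 in SYK-KO, 5250 to 5400 in SYK-WT EGF and 5830 to 6640 in SYK-KO EGF, most of it KRT18. In untreated cells KRT18 was higher in SYK-KO (log2 difference 0.68, limma adjusted p = 0.00166), while CDH1 (E-cadherin, -1.07, adjusted p = 1.89e-04), NAPSA (-1.65, adjusted p = 8.37e-05) and MUC1 (-0.48, adjusted p = 0.0127) were lower, and NAPSA was 0.787 FPKM in SYK-KO replicate 2. None of 6 immune markers reached 1 FPKM, and their summed level was 0.597 to 0.892 FPKM in SYK-WT, 1.1 in SYK-KO, 0.683 to 0.849 in SYK-WT EGF and 1.33 to 1.37 in SYK-KO EGF. None of 6 endothelial and fibroblast markers reached 1 FPKM, with DCN and LUM at 0 in all libraries. Of 5 markers of other carcinoma types CDX2 reached 2.56 FPKM, and PGR and KRT20 were at 0. Their part in the differences below was not tested. The relative depth of the libraries, read from the steps between low FPKM values, spanned 0.849 to 1.001 if each library was scaled by its own fragments. The 2 SYK-WT libraries lay farther apart than the libraries of any other group, with a median absolute log2 difference over all tested loci of 0.15 against 0.0669 in SYK-KO, 0.0709 in SYK-WT EGF and 0.0828 in SYK-KO EGF. Of the 49 genes, 38 were higher in SYK-WT replicate 2 than in replicate 1, as were 50.5% of all loci, so the counts without either library are given with each comparison.

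Across the 49 genes, RNA levels were lowest in SYK-WT cells given EGF and highest in SYK-KO cells. The summed level of the set was 1014 and 1118 FPKM in the SYK-WT libraries, 907 and 836 in SYK-WT EGF, 1265 and 1229 in SYK-KO, and 1231 and 1168 in SYK-KO EGF. The 2 SYK-WT EGF libraries were below all 6 others in this sum, and all 4 SYK-KO libraries were above all 4 SYK-WT libraries. The sum gives most weight to the genes with the highest FPKM. By the median log2(FPKM + 1) of the 49 genes SYK-WT EGF was again lowest, at 3.505 and 3.383, and untreated SYK-KO highest, at 4.335 and 4.218. The genotypes were not fully split by this median, with SYK-WT at 3.744 and 3.934 and SYK-KO EGF at 3.934 and 3.894. SYK-WT EGF had the lowest group mean for 45 of the 49 genes (26.2% of all loci), and in 41 genes both of its libraries lay below the other 6 (14.2% of all loci). The 4 genes with another lowest group were BUB3, ECT2, CENPF and INCENP. The highest group mean fell in a SYK-KO group for 38 genes (44.9% of all loci), in untreated SYK-KO for 26 of them and in SYK-KO EGF for 12 (23% and 21.9% of all loci). The median log2(FPKM + 1) of all tested loci stayed between 3.315 and 3.348 in the 8 libraries.

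**Figure D2:**
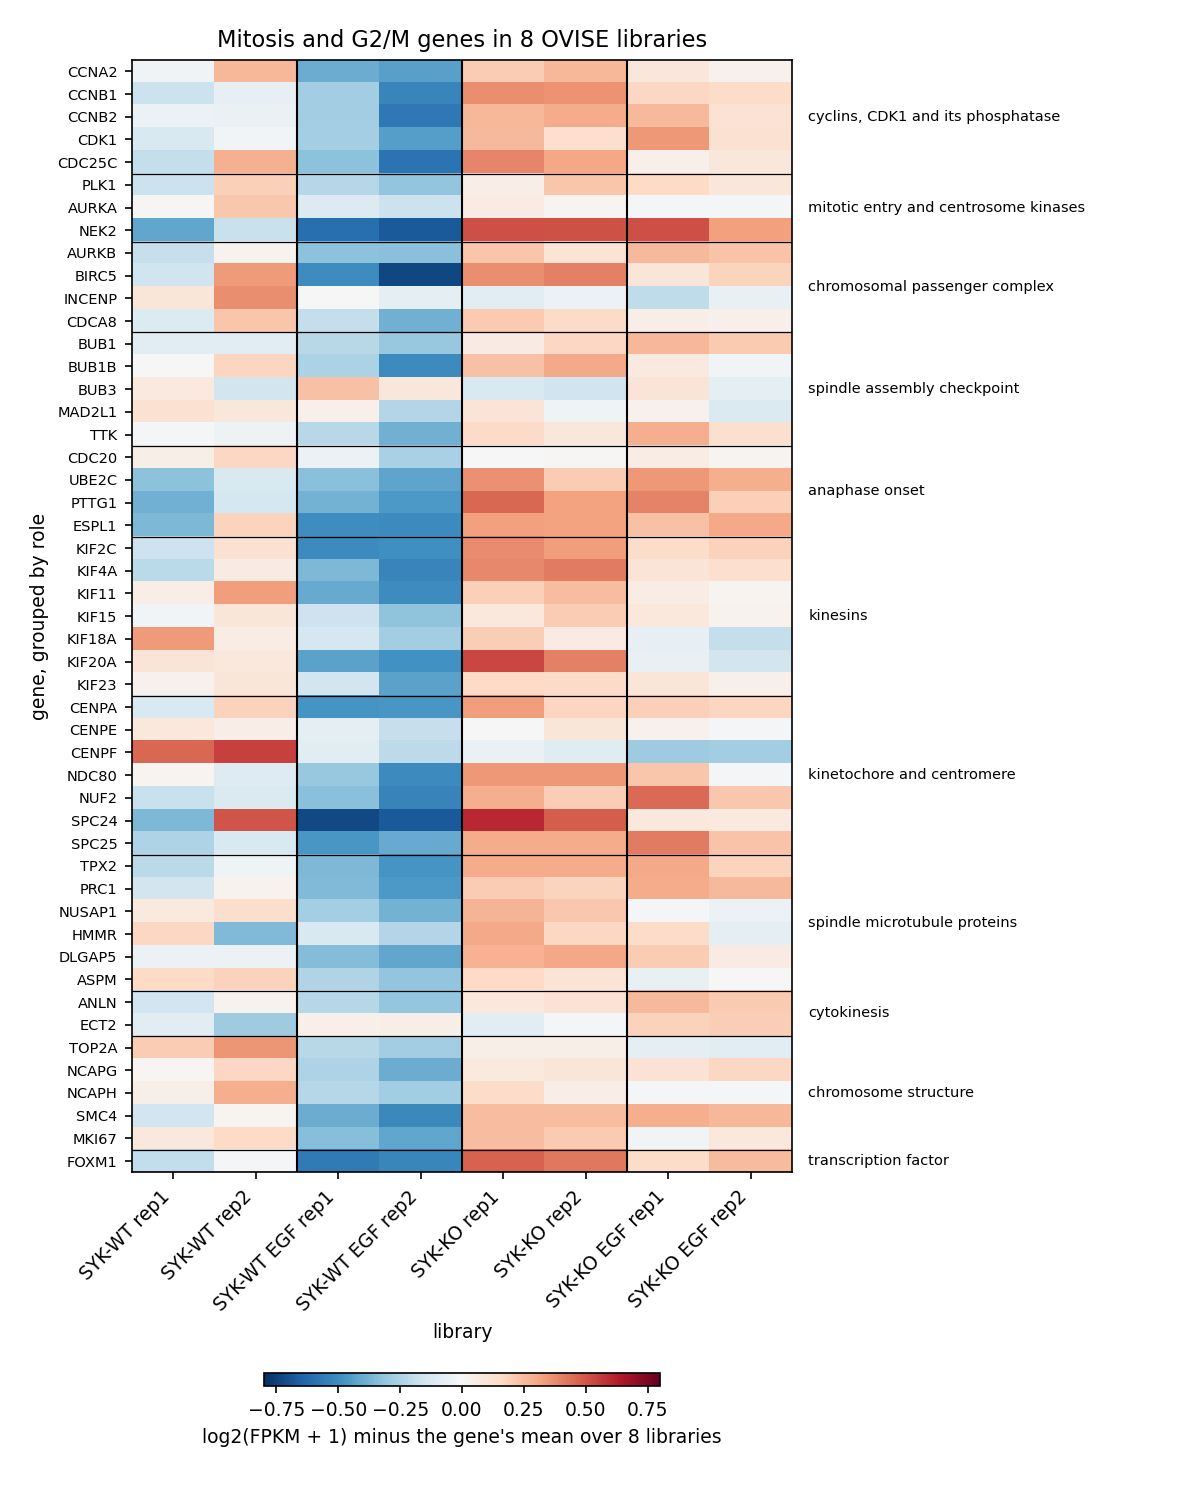
Each row is a gene of the set, grouped by role, and each column a library. Colour gives log2(FPKM + 1) minus the gene's mean over the 8 libraries, from blue (lower) to red (higher). The 2 SYK-WT EGF columns are the lowest for 41 of the 49 genes, and of the other 8 BUB3, ECT2, CENPF and INCENP have their lowest group mean elsewhere.

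With EGF more genes of the set passed as lower in SYK-WT than in SYK-KO cells when all 8 libraries were fitted together, 30 against 2. With each genotype fitted alone the order turned, with 7 lower in SYK-WT and 10 in SYK-KO cells. The share of all loci was not counted for those fits, so the 7 and 10 cannot be read against it. In the fit of all 8 libraries 0 of the 49 genes passed the test of the difference between the responses. In SYK-WT cells 30 of the 49 genes fell and 0 rose, where 12.1% of all loci fell and 14.7% rose (limma on log2(FPKM + 1), Benjamini-Hochberg adjusted p under 0.05 over all tested loci). At an unadjusted p under 0.05 the count was 44, in either direction (40.1% of all loci). The median change of the set was -0.35 on the log2(FPKM + 1) scale, which understates the change of low genes, and that of all loci was 0.01. All EGF libraries lay below all untreated SYK-WT libraries for 45 of the genes (30.5% of all loci) and above them for 2, ECT2 and BUB3 (32.6% of all loci). In SYK-KO cells 2 genes fell, KIF20A and NUSAP1, and 0 rose, where 5.13% of all loci fell and 6.67% rose. There the unadjusted count was 9 (27.4% of all loci) and the median change -0.09, against 0.00 over all loci. EGF libraries of SYK-KO cells lay below the untreated ones for 27 genes and above them for 9 (30.9% and 32.4% of all loci). No share of all loci was counted for the alternative fits that follow. The number that fell in SYK-WT cells depended on the fit. It was 17 with library quality weights, 18 without the filter on low values, 38 without SYK-WT replicate 1, 22 without SYK-WT replicate 2, 18 with SYK-KO replicate 1 or replicate 2 left out, 16 without SYK-WT EGF replicate 1 and 8 without SYK-WT EGF replicate 2. Of the 30 calls, 7 held in every alternative, those of ASPM, CENPF, KIF11, KIF20A, MKI67, NUSAP1 and TOP2A, and the other 23 ended in at least 1, with no change of direction. In SYK-KO cells the count that fell was 8 with quality weights, 7 with SYK-WT replicate 1 or replicate 2 left out, and 1 with any of the other 6 libraries left out. ECT2 rose there with quality weights, without either SYK-WT library and with SYK-KO fitted alone.

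Among the cyclins, CDK1 and its phosphatase, 4 of 5 genes fell with EGF in SYK-WT cells and 0 of 5 in SYK-KO cells. CCNB1, cyclin B1, which activates CDK1 at mitotic entry, stood at 49.1 and 52.8 FPKM in SYK-WT cells and 45.4 and 38.1 with EGF, and at 71.9 and 71.4 in SYK-KO cells and 62.3 and 61.3 with EGF. Both EGF pairs lay below their untreated pairs, and every SYK-KO library lay above every SYK-WT library. The log2 change of CCNB1 with EGF was -0.28 ± 0.0862 (SE) in SYK-WT cells (limma adjusted p = 0.0442) and -0.21 ± 0.0862 in SYK-KO cells (adjusted p = 0.162), and the first call ended in 10 of 18 alternatives, among them without SYK-WT EGF replicate 2, where the change was -0.16 (adjusted p = 0.254). CDK1, the kinase that drives mitosis, was 33.3 and 35.8 FPKM in SYK-WT cells, 29.9 and 26.5 with EGF, 43.8 and 40.1 in SYK-KO cells, and 46.5 and 39.6 with EGF. Its SYK-WT EGF libraries were the lowest of the 8, but its change of -0.29 ± 0.0987 did not pass (adjusted p = 0.0652). The other members, CCNA2 (cyclin A2), CCNB2 (cyclin B2) and CDC25C (a phosphatase that activates CDK1), changed by -0.54, -0.37 and -0.51 and passed, with adjusted p of 0.00763, 0.0301 and 0.0453. The calls of CCNA2, CCNB2 and CDC25C were kept in 16, 12 and 6 of 18 alternatives. Each of these calls ended in at least 1 fit with a library left out. CCNB2 was -0.23 without SYK-WT EGF replicate 2, and CDC25C -0.27 without SYK-WT replicate 2.

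Of the kinases of mitotic entry and the centrosome, PLK1 was 25.0 and 32.5 FPKM in SYK-WT cells, 24.0 and 22.6 with EGF, 29.4 and 33.2 in SYK-KO cells, and 31.8 and 30.2 with EGF. The spread between its untreated SYK-WT libraries was wide, and its EGF changes, -0.28 ± 0.119 for SYK-WT cells and -0.01 ± 0.119 for SYK-KO cells, did not pass (limma adjusted p = 0.119 and 0.959). AURKA, which matures the spindle poles, and NEK2, which separates the centrosomes, fell in SYK-WT cells by 0.25 and 0.34 on the log2 scale (adjusted p = 0.0467 and 0.0367). The call of AURKA was kept in 5 of 18 alternatives and that of NEK2 in 10 of 18, and without SYK-WT replicate 2 their changes were -0.15 (adjusted p = 0.109) and -0.22 (adjusted p = 0.0963).

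The chromosomal passenger complex corrects faulty attachments of chromosomes to the spindle. AURKB, its kinase, was 18.0 and 21.0 FPKM in SYK-WT cells, 16.2 and 16.1 with EGF, 24.2 and 22.3 in SYK-KO cells, and 24.9 and 24.3 with EGF. EGF libraries were thus lower in SYK-WT and higher in SYK-KO cells, with log2 changes of -0.25 ± 0.0834 (limma adjusted p = 0.0592) and 0.08 ± 0.0834 (adjusted p = 0.598), neither of which passed. BIRC5 (survivin), a subunit of the complex, was 14.5 and 20.9 FPKM in SYK-WT cells, 11.2 and 9.43 with EGF, 21.4 and 21.9 in SYK-KO cells, and 17.5 and 18.6 with EGF. It fell in SYK-WT cells by 0.71 ± 0.151 (adjusted p = 0.013), and did not pass once SYK-WT EGF replicate 2 was removed (adjusted p = 0.0932) or with only the 2 groups compared (adjusted p = 0.0666). Without SYK-WT replicate 2 it fell by 0.46. INCENP and CDCA8, the other subunits, changed by -0.27 and -0.35 without passing.

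In the spindle assembly checkpoint, which delays anaphase until all chromosomes are attached, 2 of 5 genes fell in SYK-WT cells. They were BUB1B (BUBR1), by 0.47 on the log2 scale (limma adjusted p = 0.0154), and TTK (MPS1), by 0.28 (adjusted p = 0.0482), of which TTK kept its call in 3 of 18 alternatives. BUB1 and MAD2L1 changed by -0.17 and -0.20 without passing. BUB3, which carries BUB1 and BUBR1 to kinetochores, was 66.9 and 57.2 FPKM in SYK-WT cells and 74.8 and 67.7 with EGF, a change of 0.20 in the opposite direction that did not pass (adjusted p = 0.165). The row of BUB1B also holds PAK6 transcripts, so its value is that of the joined locus. None of the 4 genes of anaphase onset fell in SYK-WT cells: CDC20, which activates the anaphase-promoting complex, changed by -0.26 (adjusted p = 0.0509), the ubiquitin-conjugating enzyme UBE2C by -0.15, PTTG1 (securin) by -0.16 and ESPL1 (separase) by -0.41. At an unadjusted p under 0.05, 2 of these 4 changed.

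The kinesins, motors that build the spindle and move chromosomes, fell in 6 of 7 cases in SYK-WT cells. KIF11 (Eg5), which pushes the spindle poles apart, was 7.41 and 9.21 FPKM in SYK-WT cells, 5.12 and 4.72 with EGF, 8.24 and 8.62 in SYK-KO cells, and 7.44 and 7.23 with EGF. All 6 other libraries lay above the SYK-WT EGF pair, and KIF11 fell by 0.65 ± 0.099 on the log2 scale in SYK-WT cells (limma adjusted p = 0.00341) against a change of -0.18 ± 0.099 in SYK-KO cells (adjusted p = 0.296). KIF20A (MKLP2), which carries the passenger complex to the spindle midzone, was 14.2 and 14.0 FPKM in SYK-WT cells, 9.55 and 9.13 with EGF, 19.5 and 17.7 in SYK-KO cells, and 12.6 and 11.8 with EGF. It fell in both genotypes, by 0.55 ± 0.0725 in SYK-WT cells (adjusted p = 0.00186) and by 0.57 ± 0.0725 in SYK-KO cells (adjusted p = 0.00301), and it was the gene of the set that kept its call in every alternative in both. KIF2C, KIF4A, KIF18A and KIF23 fell in SYK-WT cells by 0.35 to 0.49. Their calls were kept in 15, 8, 8 and 9 of 18 alternatives, in that order. KIF4A changed by -0.23 without SYK-WT replicate 2, KIF18A by -0.27 without SYK-WT replicate 1 and KIF23 by -0.21 without SYK-WT EGF replicate 2. KIF15, the lowest gene of the set at 0.967 to 1.83 FPKM, changed by -0.28 without passing.

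Of the spindle microtubule proteins, 5 of 6 fell in SYK-WT cells. NUSAP1, which bundles microtubules, was 22.9 and 23.9 FPKM in SYK-WT cells, 17.7 and 16.4 with EGF, 26.3 and 25.3 in SYK-KO cells, and 21.5 and 20.9 with EGF. Its libraries fell into 4 groups with no overlap, and it fell by 0.43 ± 0.0665 in SYK-WT cells (limma adjusted p = 0.00344) and by 0.27 ± 0.0665 in SYK-KO cells (adjusted p = 0.0377). The SYK-KO call ended in 7 of 18 alternatives, 6 of them without a SYK-KO, SYK-WT EGF or SYK-KO EGF library and 1 with a crossed replicate block, with adjusted p from 0.0547 to 0.222. ASPM, a spindle pole protein, fell by 0.45, PRC1, which crosslinks the midzone, by 0.34, DLGAP5 by 0.33 and TPX2, the activator of AURKA, by 0.29. The calls of PRC1, DLGAP5 and TPX2 were kept in 15, 14 and 8 of 18 alternatives. HMMR changed by -0.08 (adjusted p = 0.728).

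At kinetochores and centromeres, 4 of 7 genes fell in SYK-WT cells, CENPF, CENPA, SPC24 and NDC80. CENPF, a large outer kinetochore protein, was 10.9 and 11.6 FPKM in SYK-WT cells and between 6.10 and 7.34 in the 6 other libraries, with 7.12 and 6.47 in SYK-WT EGF, 7.34 and 7.09 in SYK-KO and 6.10 and 6.11 in SYK-KO EGF. Only the untreated SYK-WT pair was high, and CENPF fell with EGF by 0.65 ± 0.0735 there (limma adjusted p = 9.99e-04) against -0.21 ± 0.0735 in SYK-KO cells (adjusted p = 0.11). SPC24, a subunit of the NDC80 complex that grips microtubules, had the largest fitted change of the set, -0.77 ± 0.228 (adjusted p = 0.0417). Its 2 SYK-WT libraries were 9.33 and 17.8 FPKM, its SYK-WT EGF libraries 7.04 and 7.35, its SYK-KO libraries 19.2 and 17.6, and its SYK-KO EGF libraries 13.1 and 13.0. Without SYK-WT replicate 1 its change was -1.20 and without SYK-WT replicate 2 -0.33, where that of KIF20A was -0.56. The call ended in 8 of 18 alternatives, among them without either SYK-WT EGF replicate and without the filter on low values, with adjusted p between 0.0667 and 0.164. CENPA, the histone variant of centromeres, fell by 0.50, and NDC80 by 0.37, with calls kept in 15 and 10 of 18 alternatives. CENPE, NUF2 and SPC25 changed by -0.20, -0.29 and -0.25 without passing.

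All 5 genes of chromosome structure fell in SYK-WT cells. TOP2A, the topoisomerase that untangles sister chromosomes, was 84.4 and 93.9 FPKM in SYK-WT cells, 62.7 and 60.3 with EGF, 75.5 and 75.7 in SYK-KO cells, and 69.7 and 68.9 with EGF. It fell by 0.53 ± 0.0673 in SYK-WT cells (limma adjusted p = 0.00158) and changed by -0.12 ± 0.0673 in SYK-KO cells (adjusted p = 0.282). MKI67 (Ki-67), the proliferation marker that coats mitotic chromosomes, was 9.76 and 10.3 FPKM in SYK-WT cells, 6.99 and 6.58 with EGF, 11.0 and 10.7 in SYK-KO cells, and 8.98 and 9.74 with EGF. Its pairs did not overlap under either genotype, and it fell by 0.51 ± 0.0725 in SYK-WT cells (adjusted p = 0.0026) against -0.19 ± 0.0725 in SYK-KO cells (adjusted p = 0.129). The condensin subunits NCAPG, NCAPH and SMC4 fell by 0.40 to 0.42. Of the 2 cytokinesis genes, neither passed: the actin scaffold ANLN changed by -0.21, and ECT2, which activates RhoA at the cleavage furrow, was higher with EGF in both genotypes, by 0.23 (adjusted p = 0.0595) and 0.25 (adjusted p = 0.0788). Without SYK-WT replicate 1 both ECT2, by 0.33 (adjusted p = 0.00464), and BUB3, by 0.31 (adjusted p = 0.0255), rose with EGF in SYK-WT cells.

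FOXM1, the transcription factor that turns on much of this set in G2, was 9.68 and 11.2 FPKM in SYK-WT cells, 7.30 and 7.55 with EGF, 16.0 and 15.4 in SYK-KO cells, and 12.6 and 13.6 with EGF. Its 4 pairs did not overlap and ran in the order SYK-WT EGF, SYK-WT, SYK-KO EGF, SYK-KO. FOXM1 fell by 0.44 ± 0.084 on the log2 scale in SYK-WT cells (limma adjusted p = 0.00828) and changed by -0.24 ± 0.084 in SYK-KO cells (adjusted p = 0.109), and the first call ended without SYK-WT EGF replicate 1 (adjusted p = 0.064) and with only the 2 groups compared (adjusted p = 0.0552).

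**Figure D3:**
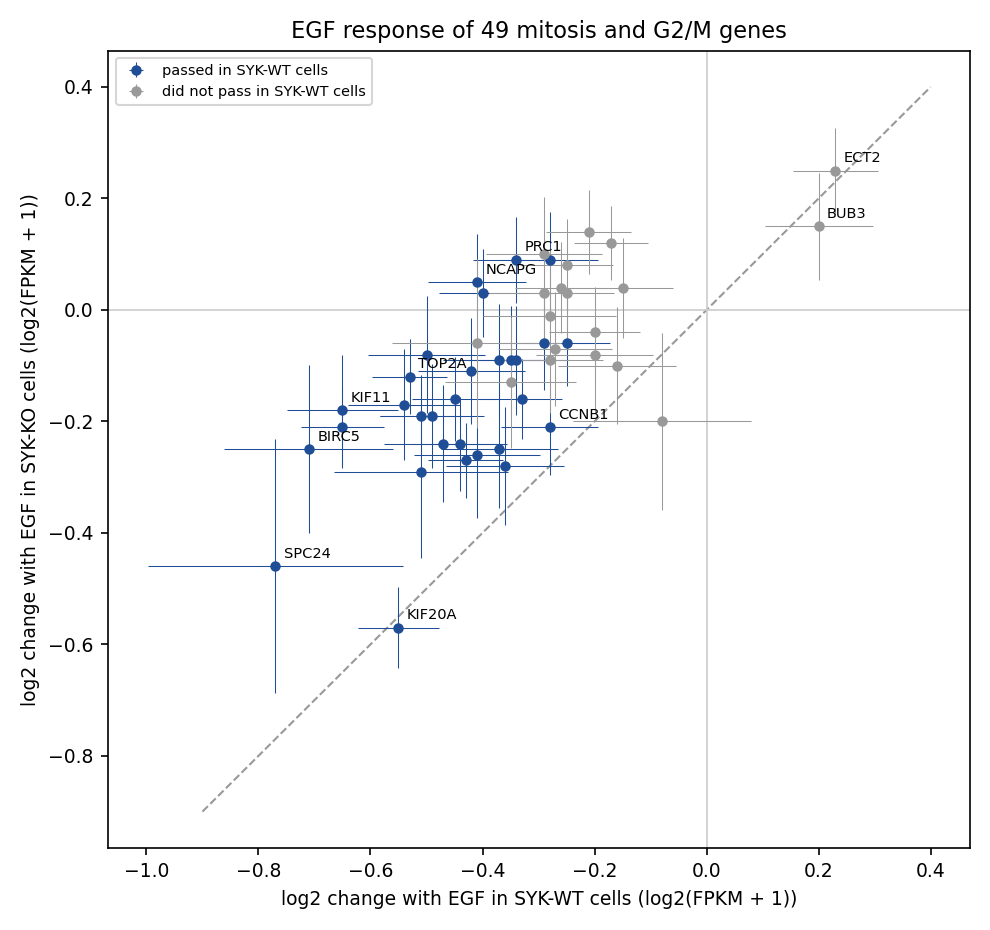
Log2 change with EGF of each of the 49 genes in SYK-WT cells (horizontal axis) and SYK-KO cells (vertical axis), on the log2(FPKM + 1) scale, with standard errors as bars. Blue points passed the test in SYK-WT cells, and the dashed line marks equal changes. For 46 genes the point lies above the line, and KIF20A, at -0.55 and -0.57, lies on it within its error.

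Loss of SYK was accompanied by higher levels of part of the set in untreated cells. Of the 49 genes, 18 were higher in SYK-KO than in SYK-WT and 3 were lower, where 20.3% of all loci were higher and 20.2% lower (limma, adjusted p under 0.05). The median difference of the set was 0.20 and that of all loci -0.01. SYK-KO libraries lay above SYK-WT libraries for 28 genes and below them for 4 (34.2% and 35.9% of all loci). This comparison shares its SYK-WT libraries with the EGF comparison in SYK-WT cells. For the alternative fits that follow, no share of all loci was counted. Without SYK-KO replicate 1 or 2 the count that was higher was 8 in each case, and the count that was lower was 1 without either of them, without SYK-WT replicate 2, with quality weights or with only the 2 groups compared. Without SYK-WT replicate 1, 16 were higher and the median difference was 0.10, and without SYK-WT replicate 2, 27 were higher. KIF2C differed by 0.38 with all libraries and by 0.23 without SYK-WT replicate 1.

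The genes that differed most were spread over the roles. NEK2 showed the largest difference, with 12.0 and 14.3 FPKM in SYK-WT, 23.8 and 23.6 FPKM in SYK-KO, 10.4 and 9.85 in SYK-WT EGF and 23.8 and 20.7 in SYK-KO EGF. Its 4 SYK-KO libraries all lay above its 4 SYK-WT libraries, and the untreated log2 difference was 0.81 ± 0.0979 (limma adjusted p = 7.16e-04). PTTG1 (securin), which holds separase in check until anaphase, was 46.7 and 55.4 FPKM in SYK-WT, 84.5 and 76.8 in SYK-KO, 47.0 and 44.2 in SYK-WT EGF, and 80.9 and 69.9 in SYK-KO EGF, an untreated difference of 0.65 ± 0.105 (adjusted p = 0.00246). UBE2C, which had the highest FPKM of the set in SYK-KO cells, was 83.6 and 96.6 FPKM in SYK-WT, 136 and 121 in SYK-KO, 83.1 and 78.3 in SYK-WT EGF, and 134 and 129 in SYK-KO EGF, a difference of 0.51 ± 0.0899 (adjusted p = 0.00364). For these 3 genes genotype separated the libraries whatever the treatment, and EGF did not move PTTG1 or UBE2C past the threshold in either genotype. FOXM1 and CCNB1, whose levels are given above, were higher in SYK-KO by 0.54 ± 0.084 (adjusted p = 0.00204) and 0.49 ± 0.0862 (adjusted p = 0.00377). PTTG1 has near-identical copies in the genome, and reads may have been divided among them.

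By role, the genes higher in untreated SYK-KO cells were CCNB1 and CCNB2 of 5 cyclin and CDK1 genes, NEK2 of 3 kinases, AURKB of 4 passenger complex genes, BUB1 of 5 checkpoint genes, UBE2C and PTTG1 of 4 genes of anaphase onset, and KIF2C, KIF4A and KIF20A of 7 kinesins. They also included NDC80, NUF2 and SPC25 of 7 kinetochore genes, TPX2, PRC1 and DLGAP5 of 6 spindle proteins, SMC4 of 5 chromosome structure genes, and FOXM1. The calls of CCNB1, FOXM1, NEK2, PTTG1, SPC25, TPX2 and UBE2C held in every alternative run, and the other 11 ended in at least 1. AURKB, at 0.24 ± 0.0834 (limma adjusted p = 0.0487), passed in 5 of 18 alternatives, with adjusted p from 0.0564 to 0.255 in the others. CDK1 (0.27, adjusted p = 0.0602), PLK1 (0.13, adjusted p = 0.415) and MKI67 (0.10, adjusted p = 0.293) did not pass.

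The 3 genes lower in untreated SYK-KO cells were CENPF, INCENP and TOP2A. CENPF was lower by 0.57 on the log2 scale (limma adjusted p = 9.48e-04), a call that held in every alternative. INCENP, the scaffold of the passenger complex, was 8.60 and 10.6 FPKM in SYK-WT, 7.43 and 7.69 in SYK-KO, 7.97 and 7.51 in SYK-WT EGF, and 6.77 and 7.60 in SYK-KO EGF, so that SYK-WT replicate 2 stood above the 7 other libraries. Its difference of -0.30 ± 0.102 (adjusted p = 0.0468) ended in 11 of 18 alternatives, with adjusted p of 0.143 without SYK-WT replicate 2 and 0.0503 with library medians equalised. TOP2A differed by -0.23 ± 0.0673 (adjusted p = 0.0271), a call that ended in 5 alternatives, among them without SYK-WT replicate 2 (adjusted p = 0.0536) and without SYK-KO replicate 1 (adjusted p = 0.123).

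**Figure D4:**
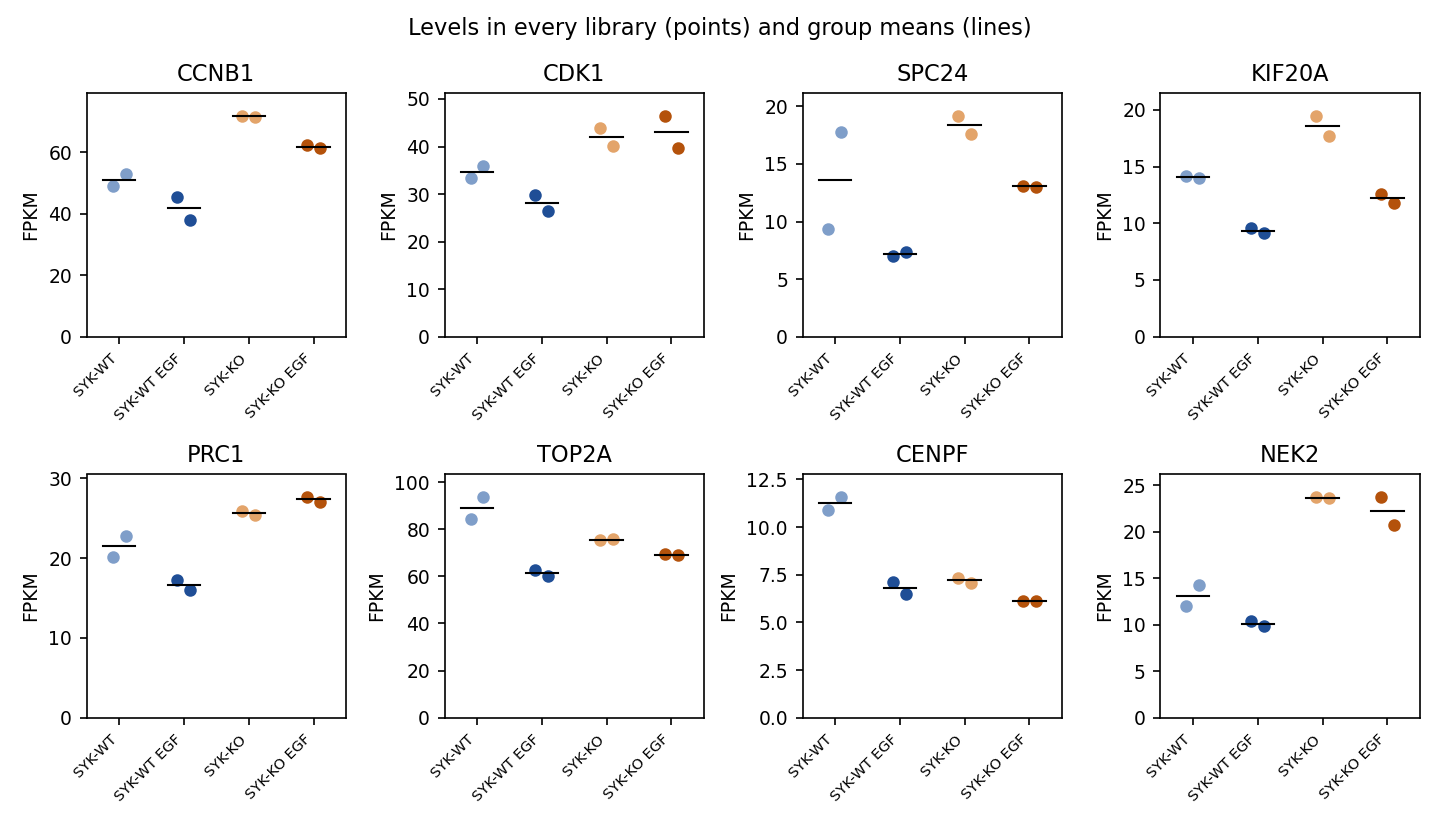
FPKM (vertical axis, from 0) of 8 genes of the set in every library (points, 2 per group) with the group mean (line). NEK2 and CCNB1 are split by genotype, KIF20A falls with EGF in both genotypes, PRC1 falls with EGF only in the SYK-WT pair, and CENPF is high only in untreated SYK-WT cells; the 2 SYK-WT libraries of SPC24, 9.33 and 17.8, are far apart.

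In the presence of EGF most of the set was higher in SYK-KO than in SYK-WT cells. Whether the gap was wider than without EGF is the test of the difference between the responses, which no gene passed. Of the 49 genes, 37 were higher in SYK-KO EGF than in SYK-WT EGF and 0 were lower, where 21.1% of all loci were higher and 22.5% lower (limma, adjusted p under 0.05, with 40 of the 49, and 52.2% of all loci, at an unadjusted p under 0.05). The median difference of the set was 0.50, against -0.02 over all loci. SYK-KO EGF libraries lay above SYK-WT EGF libraries for 44 genes and below them for 1 (37.7% and 41.2% of all loci). All 18 genes higher in untreated SYK-KO cells were also higher here. Of the 30 genes that fell with EGF in SYK-WT cells 25 were higher here, and both counts use the same SYK-WT EGF pair. The share of all loci with either overlap was not counted, so neither overlap can be read as particular to the set. Of the 37 calls, 26 held in every alternative, and leaving out single libraries gave counts from 26 to 41, with 41 without either SYK-WT library.

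NEK2 again differed most, by 1.06 ± 0.0979 on the log2 scale (limma adjusted p = 2.11e-04), and SPC24 by 0.78 ± 0.228 (adjusted p = 0.0262). The call of SPC24 ended without the filter on low values and without each SYK-WT EGF or SYK-KO EGF library in turn (adjusted p = 0.0712 to 0.108). NUF2, the partner of NDC80, was 9.35 and 9.78 FPKM in SYK-WT, 13.3 and 12.4 in SYK-KO, 8.28 and 7.06 in SYK-WT EGF, and 15.0 and 12.6 in SYK-KO EGF. ESPL1 (separase), which cuts the cohesin that joins sister chromosomes, was 3.42 and 5.40 FPKM in SYK-WT, 6.10 and 6.07 in SYK-KO, 3.01 and 2.98 in SYK-WT EGF, and 5.65 and 5.99 in SYK-KO EGF. SPC25, the partner of SPC24, was 7.65 and 8.41 FPKM in SYK-WT, 11.6 and 11.6 in SYK-KO, 6.44 and 6.75 in SYK-WT EGF, and 12.7 and 11.0 in SYK-KO EGF. In all of these the SYK-WT EGF pair was the lowest and lay below both SYK-KO pairs, and the differences with EGF were 0.77 ± 0.103, 0.77 ± 0.151 and 0.76 ± 0.085 (adjusted p = 0.00105, 0.00528 and 4.86e-04).

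All 5 cyclin and CDK1 genes were higher in SYK-KO EGF, with CDK1 at 0.59 ± 0.0987 (limma adjusted p = 0.00267) and CCNB1 at 0.56 ± 0.0862 (adjusted p = 0.00194). PLK1 at 0.40 ± 0.119 (adjusted p = 0.0295) lost its call without each SYK-WT EGF or SYK-KO EGF library in turn and without the filter on low values (adjusted p = 0.0664 to 0.14). AURKB differed by 0.57 ± 0.0834 (adjusted p = 0.00151), FOXM1 by 0.74 ± 0.084 (adjusted p = 5.01e-04) and MKI67 by 0.41 ± 0.0725 (adjusted p = 0.00339). By role, 2 of 3 entry kinases, 3 of 4 passenger complex genes, 3 of 5 checkpoint genes, 3 of 4 genes of anaphase onset, 6 of 7 kinesins, 5 of 7 kinetochore genes, 5 of 6 spindle proteins, 1 of 2 cytokinesis genes and 3 of 5 chromosome structure genes were higher. TOP2A did not pass here (0.17, adjusted p = 0.0746), and CENPF, at -0.13 (adjusted p = 0.176), and INCENP, at -0.10 (adjusted p = 0.469), were no longer called lower. BUB3, CDC20, CENPE, ECT2, HMMR and MAD2L1 passed in none of the 4 comparisons. Over the 8 libraries MAD2L1 ranged from 17.7 to 22.9 FPKM, CENPE from 1.64 to 2.21, CDC20 from 43.0 to 58.1, BUB3 from 56.7 to 74.8, ECT2 from 25.0 to 35.3 and HMMR from 9.15 to 15.0.

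The difference between the EGF responses of the 2 genotypes was tested directly, and no gene of the set passed. The response in SYK-KO minus that in SYK-WT was above 0 for 46 of the 49 genes (47.7% of all loci), with a median of 0.27 against -0.01 over all loci. Of all 12112 loci 0.00826% passed in either direction (limma, adjusted p under 0.05), and 18 of the 49 genes had an unadjusted p under 0.05, against 8.83% of all loci. The smallest p in the set belonged to TOP2A, with a difference of 0.40 ± 0.0952 and a 95% interval of 0.18 to 0.62 (adjusted p = 0.321), CENPF, with 0.44 ± 0.104 and an interval of 0.20 to 0.68 (adjusted p = 0.321), and PRC1, with 0.43 ± 0.11 and an interval of 0.18 to 0.69 (adjusted p = 0.35). PRC1, which bundles the microtubules of the midzone, was 20.1 and 22.8 FPKM in SYK-WT cells, 17.3 and 16.0 with EGF, 25.9 and 25.4 in SYK-KO cells, and 27.7 and 27.0 with EGF, so that its EGF libraries were lower in SYK-WT and higher in SYK-KO cells. For KIF20A the difference was -0.03 with an interval of -0.27 to 0.21, and for CCNB1 0.07 with an interval of -0.21 to 0.36.

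The outcome of this test turned on SYK-WT replicate 1. Without it, and with the remaining SYK-WT library assumed to vary like the other groups, 16 genes of the set passed, all with a higher response in SYK-KO, as did 3.89% of all loci. They were SPC24, TOP2A, ESPL1, KIF11, PRC1, SMC4, BIRC5, CCNA2, KIF2C, CENPA, ANLN, AURKB, CENPF, NCAPG, PLK1 and NCAPH, with limma adjusted p from 0.012 to 0.0497. The differences were then 0.74 ± 0.096 for SPC24, 0.48 ± 0.0741 for TOP2A and 0.52 ± 0.0896 for PRC1. With SYK-WT replicate 2 left out 0 passed and the median difference of the set was 0.17. With all libraries, 7 genes had both EGF libraries below both untreated ones in SYK-WT and above them in SYK-KO cells, as did 1.46% of all loci.

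**Figure D5:**
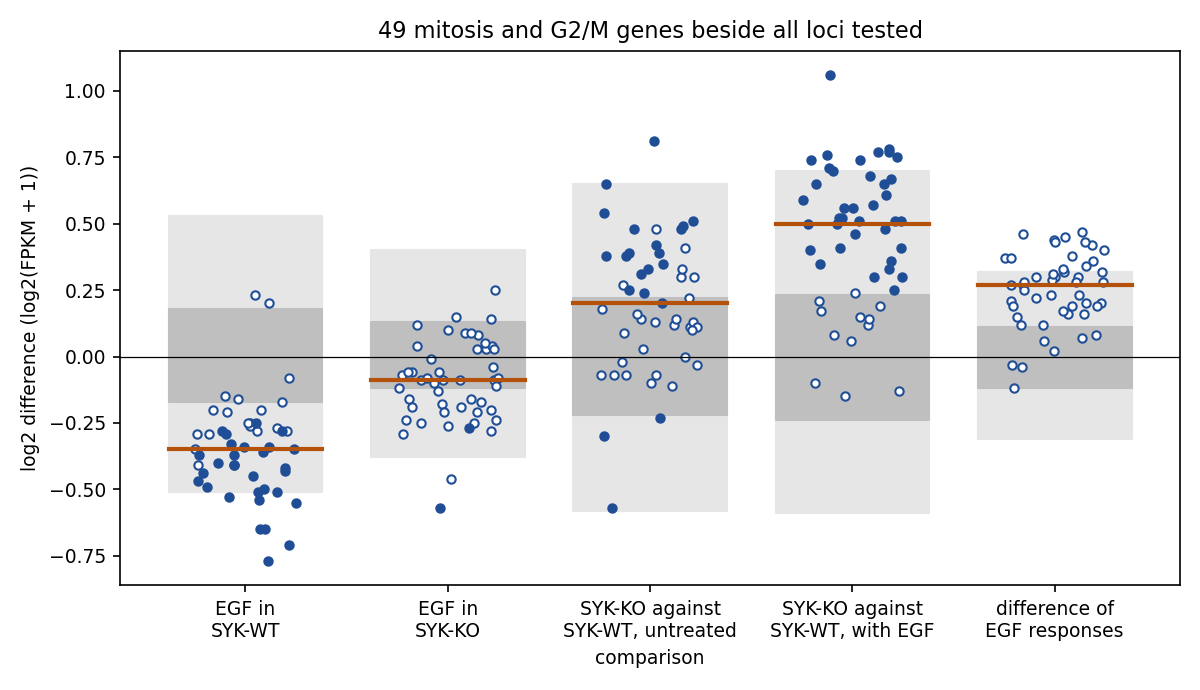
Log2 differences on the log2(FPKM + 1) scale (vertical axis) of the 49 genes in the 5 comparisons (horizontal axis). Filled points passed the test, open points did not, the orange line is the median of the set, and the grey bands hold the central part of all 12112 tested loci (dark, 25th to 75th percentile; light, 5th to 95th). The set's median lies at -0.35, -0.09, 0.20, 0.50 and 0.27 from left to right.

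Calls were spread over promoters with and without CHR letters. Of the 31 genes with CHR letters 17 fell with EGF in SYK-WT cells (median change -0.35), and of the 11 without them 8 fell (median -0.42). With EGF, 23 of the 31 and 9 of the 11 were higher in SYK-KO than in SYK-WT, with medians of 0.41 and 0.56. Neither KIF20A, which fell in both genotypes, nor NEK2, which differed most between them, held CHR letters in the promoters above. NUSAP1, which also fell in both genotypes, held CHR and CCAAT letters. CCNB2 and PRC1, with both elements, were also lower with EGF in SYK-WT cells and higher in SYK-KO.

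Other genes of the pathway were counted in the same fit, and their counts are to be read against the shares of all loci given above: with EGF 12.1% fell and 14.7% rose in SYK-WT cells and 5.13% and 6.67% in SYK-KO cells, and in SYK-KO 20.3% were higher and 20.2% lower untreated, and 21.1% and 22.5% with EGF. Of 56 tested further G2 and mitosis genes, 21 fell and 1 rose with EGF in SYK-WT cells, 0 fell and 2 rose in SYK-KO cells, 19 were higher and 1 lower in untreated SYK-KO, and 35 were higher and 0 lower in SYK-KO with EGF (limma, adjusted p under 0.05, median differences -0.28, -0.01, 0.14 and 0.40). Among them LMNB1, a lamin of the nuclear envelope, fell with EGF in SYK-WT cells by 0.73 (adjusted p = 0.00667), SKA2, a kinetochore protein, by 0.48 (adjusted p = 0.00478) and CDCA5 (sororin), which protects cohesion, by 0.39 (adjusted p = 0.00622, and 0.0574 without SYK-WT EGF replicate 2). TROAP was higher in SYK-KO by 0.86 untreated (adjusted p = 7.99e-04) and 1.15 with EGF (adjusted p = 2.14e-04). The 2 genes of this list that rose with EGF in SYK-KO cells, described next, are below the share of all loci. HJURP, the chaperone that loads CENPA, and CDC25B, a phosphatase that activates CDK1, rose with EGF in SYK-KO cells, by 0.40 (adjusted p = 0.0207) and 0.29 (adjusted p = 0.0187), and both calls ended without each SYK-KO or SYK-KO EGF library in turn (adjusted p = 0.0806 to 0.17).

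Of 16 tested MuvB, DREAM and E2F genes, 5 fell and 2 rose with EGF in SYK-WT cells, 0 passed in SYK-KO cells (4 at an unadjusted p under 0.05), 1 was higher and 6 were lower in untreated SYK-KO, and 5 were higher and 4 lower in SYK-KO with EGF. The 4 lower with EGF are close to the share of all loci, and the 2 that rose in SYK-WT cells are below it. E2F1, the activator of the entry into S phase, fell with EGF in SYK-WT cells by 0.68 (limma adjusted p = 0.00541), and its partner TFDP1 by 0.34 (adjusted p = 0.011), while LIN37, a MuvB subunit, rose by 0.61 (adjusted p = 0.0213). LIN37 rose by 0.38 without SYK-WT replicate 2, and the calls of LIN37 and TFDP1 ended without either SYK-WT EGF library (adjusted p = 0.061 to 0.11). MYBL2 (B-MYB) was 15.6 and 19.3 FPKM in SYK-WT, 29.2 and 27.5 in SYK-KO, 14.3 and 13.3 in SYK-WT EGF, and 27.7 and 28.7 in SYK-KO EGF. It was higher in SYK-KO by 0.68 untreated (adjusted p = 0.00151) and 0.98 with EGF (adjusted p = 2.98e-04). E2F4, of the repressive complex, and RBBP4, a MuvB protein, were lower in untreated SYK-KO cells, by 0.45 (adjusted p = 0.0015) and 0.46 (adjusted p = 0.00122).

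Of 39 DNA replication genes, 19 fell and 1 rose with EGF in SYK-WT cells, 1 fell and 1 rose in SYK-KO cells, 8 were higher and 3 lower in untreated SYK-KO, near the share of all loci among the higher, and 22 were higher and 2 lower in SYK-KO with EGF. RRM2, a subunit of ribonucleotide reductase, fell with EGF in SYK-WT cells by 0.75 (limma adjusted p = 0.00128), and CDT1, which licenses origins, was higher in SYK-KO with EGF by 1.32 (adjusted p = 3.33e-04). MCM2 was lower in untreated SYK-KO cells, with group means of 10.9 FPKM in SYK-WT and 5.92 in SYK-KO. GINS3 rose with EGF in both genotypes, from 3.93 to 6.01 FPKM in SYK-WT cells and from 4.46 to 5.66 in SYK-KO cells. Of 17 genes of the anaphase-promoting complex and its partners, 2 fell with EGF in SYK-WT cells, 1 fell in SYK-KO cells, and 3 were higher and 1 lower in SYK-KO both untreated and with EGF, counts near or below the shares of all loci. FBXO5 (EMI1), an inhibitor of that complex, was 1 of the former, at -0.40 (adjusted p = 0.00641, and 0.0593 without SYK-WT EGF replicate 1). Of 14 cohesin and other condensin genes 3 fell with EGF in SYK-WT cells, among them NCAPD2 by 0.52 (adjusted p = 0.00303), which also fell in SYK-KO cells by 0.31 (adjusted p = 0.0387), a call lost without any 1 of the SYK-KO, SYK-WT EGF or SYK-KO EGF libraries (adjusted p = 0.0788 to 0.212).

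Of 10 G1 cyclin and kinase genes, 3 fell and 1 rose with EGF in SYK-WT cells, and 1 fell and 1 rose in SYK-KO cells, so that those that rose in SYK-WT cells were below the share of all loci. CCNE1 (cyclin E1) rose with EGF in SYK-KO cells by 0.59 (limma adjusted p = 0.00404). In SYK-KO 3 of these genes were higher and 3 lower untreated, and 2 were higher and 2 lower with EGF. The counts with EGF are near the shares of all loci. MYC was lower in both comparisons, with group means of 115 FPKM in SYK-WT and 79.3 in SYK-KO, and 130 and 75.4 with EGF. CCND1 was 344 and 394 FPKM in SYK-WT and 274 and 275 in SYK-KO. With EGF it was 290 and 315 in SYK-WT and 243 and 242 in SYK-KO. Of 8 CDK inhibitor genes, 3 rose and 1 fell with EGF in SYK-WT cells. CDKN1B was 18.8 and 23.8 FPKM in SYK-WT, 17.4 and 17.8 with EGF, 19.7 and 19.5 in SYK-KO, and 18.3 and 18.4 with EGF. CDKN1A (p21) was 187 and 195 FPKM in SYK-WT, 225 and 235 with EGF, 223 and 206 in SYK-KO, and 247 and 246 with EGF, and it rose by 0.27 in SYK-WT cells (adjusted p = 0.0207, and 0.0777 and 0.132 without SYK-WT EGF replicate 1 or 2). CDKN2B (p15) rose in both genotypes, by 0.71 (adjusted p = 8.09e-04) and 0.62 (adjusted p = 0.00277), while CDKN2C (p18) fell in SYK-WT cells by 0.81 (adjusted p = 0.00806, and 0.0566 without SYK-WT EGF replicate 2). In none of these lists did a gene pass the test of the difference between the EGF responses.

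The authors' deposited table also holds q-values for 3 of the comparisons. At a q under 0.05 in the authors' deposited table, 15 genes of the set were lower and 0 higher with EGF in SYK-WT cells (15.2% of all loci in either direction), and 14 of the 15 were among the 30 that fell above. In untreated SYK-KO cells 9 were higher and 1 lower in the authors' deposited table (21.5% of all loci), 9 of these 10 being called here. With EGF 28 were higher and 0 lower in SYK-KO by the authors' deposited table (24% of all loci), all 28 among the 37 above.

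Some values carry limits from the annotation. For 13 of the 49 genes (ANLN, BUB1, CCNA2, CDC25C, FOXM1, HMMR, KIF18A, KIF20A, KIF23, NCAPG, PLK1, PRC1 and SMC4) the interval listed for the row (hg19) also covers other entries, some of them antisense such as HMMR-AS1, KIF23-AS1 and PRC1-AS1. Whether counting used the strand is not given in the sources used here, so reads of overlapping or antisense transcripts cannot be told apart there.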

How the data were processed

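RNA-seq of OVISE cells was deposited as 1 table of FPKM values for 27757 loci in 8 libraries, 2 in each of 4 groups, with the authors' q-values for 3 comparisons. Per the submitters' processing notes TopHat, Cufflinks and Cuffdiff (2.2.1.3) were used with hg19; their settings, strand use and the scaling behind the deposited FPKM were not given in the sources used here. The deposited q-values (adjusted p-values) were read as the authors' own. Read depth is unknown beyond the relative value given.

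RefSeq accessions were matched to symbols (27541 loci, 99.2%). The 12112 loci that reached 1 FPKM in 2 or more libraries were tested with limma 3.58.1 in R 4.3.3 on log2(FPKM + 1), with the trend of variance on mean, 1 mean per group over all 8 libraries (4 residual and 3.87 prior degrees of freedom), two-sided, and Benjamini-Hochberg adjusted over all loci. The script was tested on simulated data. The members and lists were chosen with earlier results of these data known. The text gives library values for CCNB1, CDK1, PLK1, AURKB, TOP2A, MKI67 and FOXM1, for the 5 members with the largest called difference in each direction per comparison, or the 3 with the smallest p where none passed, and up to 3 genes of each other list with the smallest adjusted p. E2F1, MYBL2, CDKN1A, CDKN1B, CCND1, CCNE1 and SYK were always eligible, and values of BUB3, CDC20, CENPE, ECT2, HMMR and MAD2L1 were added after they were seen. Alternatives changed the pseudocount, filter, scaling, samples fitted, trend, weights, replicate block or left out 1 library. Promoters are from RefSeq, GRCh38.p14.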

Additional observations from a re-analysis of the deposited data

Results flagged for a closer look

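In 7 genes of the set both EGF libraries lay below both untreated libraries in SYK-WT cells and above them in SYK-KO cells, as in 1.46% of all loci. The EGF response in SYK-KO minus that in SYK-WT was 0.33 (log2) for AURKB, 0.30 for BUB1, 0.30 for CDC20, 0.43 for PRC1, 0.34 for ANLN, 0.46 for NCAPG and 0.43 for SMC4. None passed the limma test of the difference itself over all loci (adjusted p = 0.494, 0.454, 0.522, 0.35, 0.447, 0.363 and 0.35). With SYK-WT replicate 1 left out, the differences of AURKB, PRC1, ANLN, NCAPG and SMC4 were 0.44, 0.52, 0.44, 0.54 and 0.52. Those of BUB1 and CDC20 in that fit are not given here. In all of the genes with a value, replicate 2 was the higher SYK-WT library. Leaving out replicate 1 therefore widens their fall in SYK-WT cells, and the fit rests on a single untreated SYK-WT library.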

How the results depend on the processing

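Of 54 single-gene results tested under every alternative, 31 passed and 21 of these passed under each setting run; the rest lost the call in at least 1 setting, and none changed direction. Leaving out 1 library gave 8 to 38 genes lower and 0 to 2 higher with EGF in SYK-WT cells (median change -0.42 to -0.27), 1 to 7 lower and 0 to 1 higher in SYK-KO cells (median -0.13 to -0.07), 8 to 27 higher and 1 to 3 lower in untreated SYK-KO (median 0.10 to 0.29), 26 to 41 higher in SYK-KO with EGF (median 0.43 to 0.54), and 0 to 16 with a higher response in SYK-KO (median 0.17 to 0.34). With EGF in SYK-WT cells 18 genes were lower with no filter, 7 with only the groups compared and 17 with quality weights. In SYK-KO cells 10 were lower and 1 higher with only the groups compared, and 8 and 1 with quality weights. Untreated, 1 gene was lower in SYK-KO under either of these settings. Among the alternative fits, a share of all loci was counted only for the difference of responses without SYK-WT replicate 1. The other counts, those with a replicate block included, cannot be read against such a share. A pseudocount of 5 gave medians of -0.24 (EGF in SYK-WT) and 0.34 (SYK-KO with EGF). The cause of these shifts was not tested. Directions turned in uncalled results only: the CCNB1 difference of responses without SYK-WT EGF replicate 2 (-0.05, with single libraries left out giving up to 0.20), CDK1 with EGF in SYK-KO without SYK-KO replicate 2 (-0.03) or replicate 1 of SYK-KO EGF (-0.08, up to 0.15), PLK1 there without SYK-KO replicate 2 (0.07) or replicate 2 of SYK-KO EGF (0.02, down to -0.10), and untreated PLK1 without SYK-WT replicate 1 (-0.06, up to 0.31).

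Deviations of same-numbered libraries correlated at 0.161 to 0.27 among SYK-WT, SYK-KO and SYK-KO EGF and at -0.381 to -0.161 between SYK-WT EGF and each of these. The labels name no shared batch and not every pair was positive, so the numbers were not taken to pair the libraries. With the replicate number as a block, 30 genes were lower with EGF in SYK-WT cells, 2 in SYK-KO cells, 19 were higher and 3 lower in untreated SYK-KO, 36 were higher in SYK-KO with EGF and 0 differed in response; calls that ended included that of AURKB in untreated cells (adjusted p = 0.0564). With the SYK-WT EGF numbers crossed, a setting chosen after seeing the data, the replicate block gave 31, 1, 17 and 3, 37 and 0. Read depth is unknown, so its share in the precision, beside that of 2 libraries per group, cannot be given.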
